A study of Caenorhabditis elegans with 2 samples.

Results

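The genes described here encode the proteins of the large subunit of the cytosolic ribosome of *Caenorhabditis elegans*, and the measurement is where chromatin immunoprecipitation followed by sequencing (ChIP-seq) recovered the zinc finger protein ZTF-4 next to them. Members were taken by name, as every protein-coding gene of the WBcel235 annotation whose symbol begins with rpl- or rla-, which gave 50 of 19985 protein-coding genes. Genes of the mitochondrial ribosome were not included. The animals were whole L2 larvae of strain OP322, of pooled sexes and unknown age, with genotype unc-119(ed3) III; wgIs322, where wgIs322 is an insertion that supplies ZTF-4 tagged with eGFP, a green fluorescent protein. Both libraries share this genotype, and they are 2 biological replicates of 1 group, so there was no second condition to compare. The promoter that drives the transgene was not named in the labels, the antibody field of the labels names ztf-4, and the control sample that the labels point to was not analysed here. A whole larva mixes all tissues, so the cells in which a site was occupied are not known.

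The large subunit joins amino acids at its peptidyl transferase centre, passes the new chain through an exit tunnel, and recruits elongation factors through a flexible stalk. Its proteins are made in fixed proportion from genes scattered over the genome. Ribosomal protein genes are among the most strongly transcribed genes of growing larvae. Many *C. elegans* messenger RNAs carry a trans-spliced leader, so an annotated start may mark the splice site and transcription may begin further upstream.

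Peaks lay close to most of these genes. A peak here is a region of the authors' list past the threshold of the irreproducible discovery rate (IDR), which held 1794 peaks, and it was given to each gene with an annotated start no more than 500 bp from the summit. Of the 50 genes, 30 (60%) had a peak, where 5.17% of all protein-coding genes had one. A region of the pooled list of 30000 regions, most of them below the threshold, lay near 41 of the 50 genes (82%) and near 34% of all protein-coding genes. Among genes with such a region, 73.2% of the large subunit genes and 15.2% of all protein-coding genes had a peak. Each replicate alone gave a similar count. Among the 1794 highest regions of its own list, replicate 1 had one near 26 of the 50 genes (background 4.81%) and replicate 2 near 30 (background 5.21%), and 26 genes had one in both. A peak that overlapped such a region in each replicate lay near 52% of the 50 genes and 3.45% of all protein-coding genes. No peak was shared between large subunit genes, and none of the 30 genes had more than 1. Of the 30, 16 shared the peak with a protein-coding gene outside the list, as given below.

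The sequences at the 4 highest peaks are printed first, as 101 bases centred on the summit, read 5′ to 3′ on the strand of the gene. They were read from the RefSeq copy of WBcel235, the same assembly as ce11. The capitals mark 3 words of 6 letters, each on either strand, that were among the most frequent words at these genes' summits and were picked after the sequences were seen. The first word is ACCGTA, which reads TACGGT on the other strand. The second is CACTCG, read there as CGAGTG. The last is GAGACC, read there as GGTCTC. The windows are chrIII:3867521-3867621 for rpl-3 on the plus strand, chrIV:4750016-4750116 for rpl-20 on the minus strand, chrIV:654878-654978 for rpl-15 on the minus strand and chrIII:7854649-7854749 for rpl-35 on the plus strand.
rpl-3: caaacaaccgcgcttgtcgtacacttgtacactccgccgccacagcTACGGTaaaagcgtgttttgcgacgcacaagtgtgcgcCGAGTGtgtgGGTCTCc
rpl-20: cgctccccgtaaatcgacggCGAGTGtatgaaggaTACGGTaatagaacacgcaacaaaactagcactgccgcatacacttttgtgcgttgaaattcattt
rpl-15: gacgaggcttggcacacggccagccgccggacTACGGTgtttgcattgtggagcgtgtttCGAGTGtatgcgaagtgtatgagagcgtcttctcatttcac
rpl-35: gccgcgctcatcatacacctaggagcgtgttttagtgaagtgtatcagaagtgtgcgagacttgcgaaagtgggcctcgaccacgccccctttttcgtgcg

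The next 5 sequences are shown because they carry the same pair of words at the same spacing. In each, CGAGTG and ACCGTA stand on one strand with 2 bases between them. The windows are chrX:2242951-2243051 for rpl-11.2 (minus strand), chrII:5055320-5055420 for rpl-22 (plus), chrIV:13881939-13882039 for rpl-29 (plus), chrIII:7208037-7208137 for rpl-6 (plus) and chrIII:8130515-8130615 for rpl-21 (minus).
rpl-11.2: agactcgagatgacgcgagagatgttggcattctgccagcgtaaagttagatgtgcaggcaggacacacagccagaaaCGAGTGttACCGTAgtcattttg
rpl-22: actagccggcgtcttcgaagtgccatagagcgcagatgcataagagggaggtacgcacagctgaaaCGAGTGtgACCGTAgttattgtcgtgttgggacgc
rpl-29: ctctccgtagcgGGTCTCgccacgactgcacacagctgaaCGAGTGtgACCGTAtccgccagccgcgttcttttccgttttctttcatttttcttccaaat
rpl-6: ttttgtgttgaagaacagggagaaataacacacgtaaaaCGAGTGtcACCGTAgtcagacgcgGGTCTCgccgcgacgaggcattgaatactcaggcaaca
rpl-21: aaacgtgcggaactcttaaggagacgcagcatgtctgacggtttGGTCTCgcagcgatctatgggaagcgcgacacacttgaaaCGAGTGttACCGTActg

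Windows from genes on either side of the threshold of 1794 peaks follow, at pooled ranks 1499 (rpl-34) and 2119 (rpl-2). The peak of rpl-34 (chrIV:12268605-12268705, plus strand) was one of the lowest at these genes. Its window holds none of the 3 words and 23.8% G and C, the lowest share at the 30 summits. The other low peaks differed from it. The window of rpl-7 held ACCGTA and GAGACC and 59.4% G and C, and that of rpl-31 held GAGACC and 38.6%. The region at rpl-2 (chrV:20479290-20479390, plus strand) was the highest one below the threshold at these genes, and its window holds GAGACC and 55.4% G and C.
rpl-34: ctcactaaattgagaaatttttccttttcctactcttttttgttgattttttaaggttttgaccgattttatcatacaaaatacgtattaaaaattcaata
rpl-2: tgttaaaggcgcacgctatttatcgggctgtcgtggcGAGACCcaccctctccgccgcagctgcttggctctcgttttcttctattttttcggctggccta

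Signal differed more than 10-fold among the 30 genes with a peak, and 5 of them stood above the rest. The signal value is the authors' own, has no stated scale and was used to rank regions within a list. It was highest at rpl-3, whose product, the protein uL3, reaches from the surface of the subunit to the peptidyl transferase centre. The gene lies at chrIII:3867854-3869587. The peak at rpl-3 had a signal of 843 in the pooled list, 401 in replicate 1 and 459 in replicate 2, and it ranked first in each. The peak of rpl-20 (chrIV:4749123-4749778, minus strand) had 630 in the pooled list, 288 in replicate 1 and 343 in replicate 2. That of rpl-15, which encodes a protein of the subunit core, had 596, 258 and 329 in the same order. That of rpl-35, whose product sits at the mouth of the exit tunnel, had 553, 283 and 288. These last 3 peaks held the ranks 2, 7 and 4 in replicate 1 and 4, 5 and 7 in replicate 2, so their order among themselves differed between replicates.

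A step in signal followed. The fifth gene, rpl-12, encodes a protein at the base of the stalk, and its peak had a signal of 324 in the pooled list, 120 in replicate 1 and 200.2 in replicate 2. It ranked 47 in replicate 1 and 16 in replicate 2. The sixth, rpl-11.2, encodes a protein that binds 5S ribosomal RNA and had 198, 87.6 and 109.6. No large subunit gene had a peak ranked from 26 to 100. The next were rpl-22 (159.7, with 71.1 and 83.4 in replicates 1 and 2), rpl-24.2 (159, with 75 and 78.3), rpl-23 (150.5, with 61.7 and 91.5) and rpl-7A (136, with 64.9 and 70.7). The gene rpl-24.2 is, by its human counterpart, a factor of subunit assembly, not a protein of the finished ribosome. In both replicates the first 5 genes had higher signals than the other 25.

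The remaining 20 genes with a peak fell in a narrow band, from 135 at rpl-33 down to 63.9 at rpl-31. Those of 103 or more were rpl-33, rpl-36, rpl-29, rpl-41.2, rpl-14, rpl-6, rpl-5 and rpl-28, among which rpl-5 encodes the other large subunit protein of the 5S particle. Those below were rpl-32, rpl-25.2, rpl-9, rpl-21, rpl-18, rpl-24.1, rpl-36.A, rpl-13, rpl-1, rpl-34, rpl-7 and rpl-31. The median pooled signal of the 30 genes was 112.5 (quartiles 88.6 and 157), and it was 86.96 over all 1034 protein-coding genes with a peak. Their median rank was 472, against 807.5. Small subunit genes with a peak had a median signal of 125.1 and a median rank of 377. For the large subunit, 29 genes with a peak had a region in both replicates. Across them, the replicates' signals were related with a Pearson's r of 0.99 and a Spearman's rho of 0.93. Without the 5 highest genes r was 0.86 and rho 0.88 over 24 genes. These points were selected on the pooled signal of the same libraries, and the values are a description.

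**Figure D1:**
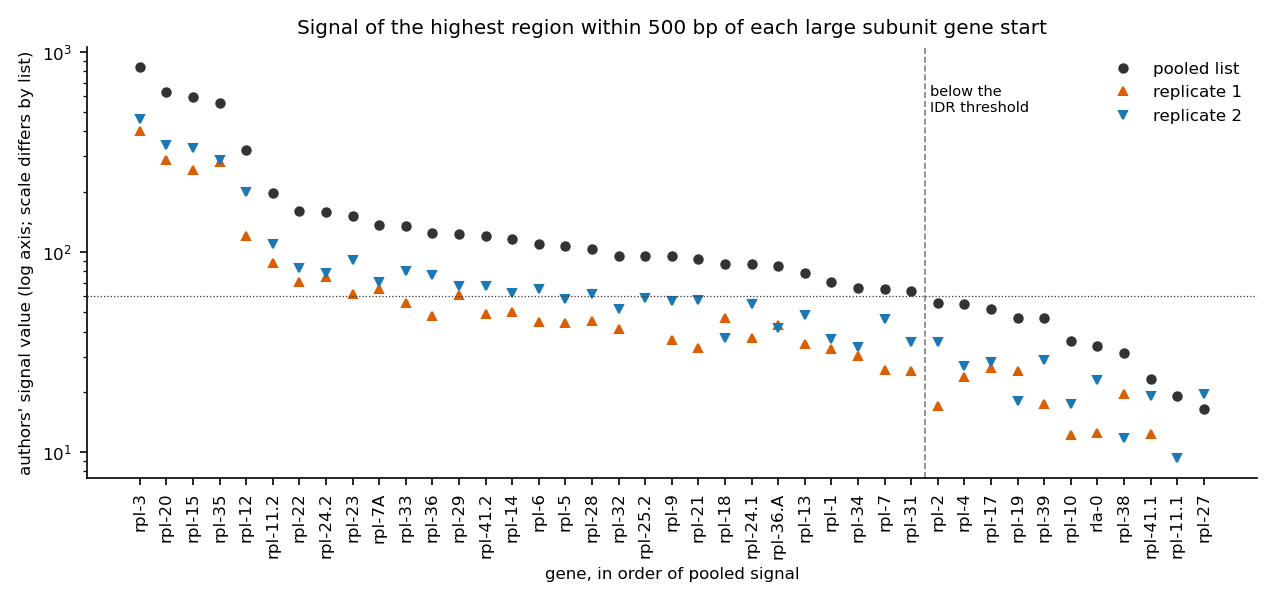
Signal value of the highest region near each of the 41 large subunit genes that had a region in the pooled list, on a log axis, in the pooled list (circles) and in replicates 1 and 2 (triangles). The dotted line is the lowest signal of any peak (60.2), the dashed line divides the 30 genes with a peak from the 11 without, and the first 5 genes from rpl-3 to rpl-12 lie above the others in every list.

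At 4 genes with a peak, the region was not among the 1794 highest of both replicates. No region of replicate 1 lay within 500 bp of rpl-25.2, and its nearest summit in that list was 684 bp away, while replicate 2 had a region with a signal of 59.0 at rank 551. The product of rpl-25.2 corresponds to the human protein RPL23A, which docks chaperones and targeting factors at the exit tunnel. The peaks of rpl-7 and rpl-31 ranked 2777 and 2818 in replicate 1, outside its 1794 highest regions, and 951 and 1673 in replicate 2. The peak of rpl-34 lay outside the highest regions of both replicates, at ranks 1828 and 1901. Without these 4 genes, 26 genes (52%) had a peak, where 3.45% of all protein-coding genes had a peak in the top of both replicates.

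Below the threshold, the highest region was that of rpl-2, whose product sits by the peptidyl transferase centre. It ranked 1704 in replicate 2, among its highest regions, and 7920 in replicate 1, and its pooled signal of 55.3 was under the lowest peak signal of 60.2. The next were rpl-4 (54.6) and rpl-17 (52.1), both of which encode proteins that line the exit tunnel. Their ranks lay between 2597 and 3427 in both replicates. The other genes with a region but no peak were rpl-19 (46.7), rpl-39 (46.5), rpl-10 (35.9), rla-0 (33.9), rpl-38 (31.4), rpl-41.1 (23.2), rpl-11.1 (19.0) and rpl-27 (16.5). Of these 11 genes, rpl-19, rpl-38 and rpl-27 had the summit inside an intron of the gene itself, all downstream of the start, by 303 bp at rpl-19 and 219 bp at rpl-38. Of the lowest 3, the highest region near rpl-41.1 had a signal of 12.4 in replicate 1 and 19.2 in replicate 2, rpl-11.1 had none in replicate 1 and 9.31 in replicate 2, and rpl-27 had none and 19.5.

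The last 9 genes had no pooled region near a start. Neither replicate's list had one near rla-1, rla-2, rpl-16 or rpl-42. Replicate 1 alone had a region near rpl-25.1, rpl-26, rpl-30, rpl-37 and rpl-43, with signals from 10.6 at rpl-37 to 26.6 at rpl-30. These were not all low in that replicate. The region near rpl-30 ranked 2531 there, above those of rpl-7 (2777) and rpl-31 (2818), which had peaks, and that near rpl-26 ranked 3272. For these genes the replicates differed. A missing region says that none of the 30000 listed regions had its summit there, and the files hold no read counts with which to measure the level.

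Few genes of the stalk had a peak. Its proteins are the scaffold P0 (rla-0), the acidic proteins P1 and P2 (rla-1 and rla-2) and the protein at its base (rpl-12). A peak lay near rpl-12 and near none of the 3 rla- genes, and only rla-0 had a pooled region, at rank 6076. The list taken for the stalk also held rpl-10, whose product lies by the transfer RNA sites and which had no peak, at rank 5359. Of the pair that binds 5S ribosomal RNA, rpl-5 had a peak at rank 524 and so did 1 of the 2 genes for the other protein, rpl-11.2. These groups are too small to set against the 60% of all members.

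Gene copies with the same number in their names differed in several cases. The gene rpl-11.2 had a peak at rank 112, while the highest pooled region near rpl-11.1 ranked 21020 and replicate 1 listed none there. The gene rpl-25.2 had a peak, and rpl-25.1 had no pooled region. Replicate 1 did not show this difference, with no region near rpl-25.2 and one of 11.0 at rank 21079 near rpl-25.1. The neighbours rpl-41.1 and rpl-41.2, which encode the smallest protein of the subunit, are both on the plus strand of chromosome I, and the peak lay 274 bp upstream of rpl-41.2. The highest pooled region near rpl-41.1 ranked 14006. Both rpl-24.1 (87.5) and rpl-24.2 (159) had peaks, although their products differ in role. The names rpl-7 and rpl-7A, like rpl-36 and rpl-36.A, denote different proteins, and all 4 of these genes had a peak.

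Summits lay upstream of the start at all 30 genes with a peak, and at 89.7% of all protein-coding genes with a peak. The same held at all 18 small subunit genes with a peak. For the 30 large subunit genes the median position was -297.5 bp (quartiles -350 and -236 bp). The position was 200 to 400 bp upstream at 23 genes. It was 401 bp at rpl-36 and 435 bp at rpl-35, and under 200 bp at rpl-12 (30 bp), rpl-7A (89 bp), rpl-24.2 (155 bp), rpl-25.2 (169 bp) and rpl-18 (189 bp). Summits were more than 200 bp upstream at 83.3% of these genes and at 46.6% of all protein-coding genes with a peak, where the median position was -185 bp. No test of this difference was run. Replicates placed the summits closely. At the 29 genes with an overlapping region in both, their summits differed by a median of 11 bp and by at most 76 bp, and at 26 genes they lay within 50 bp of each other. Medians were -307 bp in replicate 1 and -295 bp in replicate 2. Most summits, at 24 of the 30 genes, lay outside every annotated gene, a share that was not counted for other peaks. That of rpl-24.2 lay in an intron of C03D6.1, and those of rpl-5, rpl-24.1, rpl-36.A, rpl-34 and rpl-7 in exons of short noncoding genes.

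**Figure D2:**
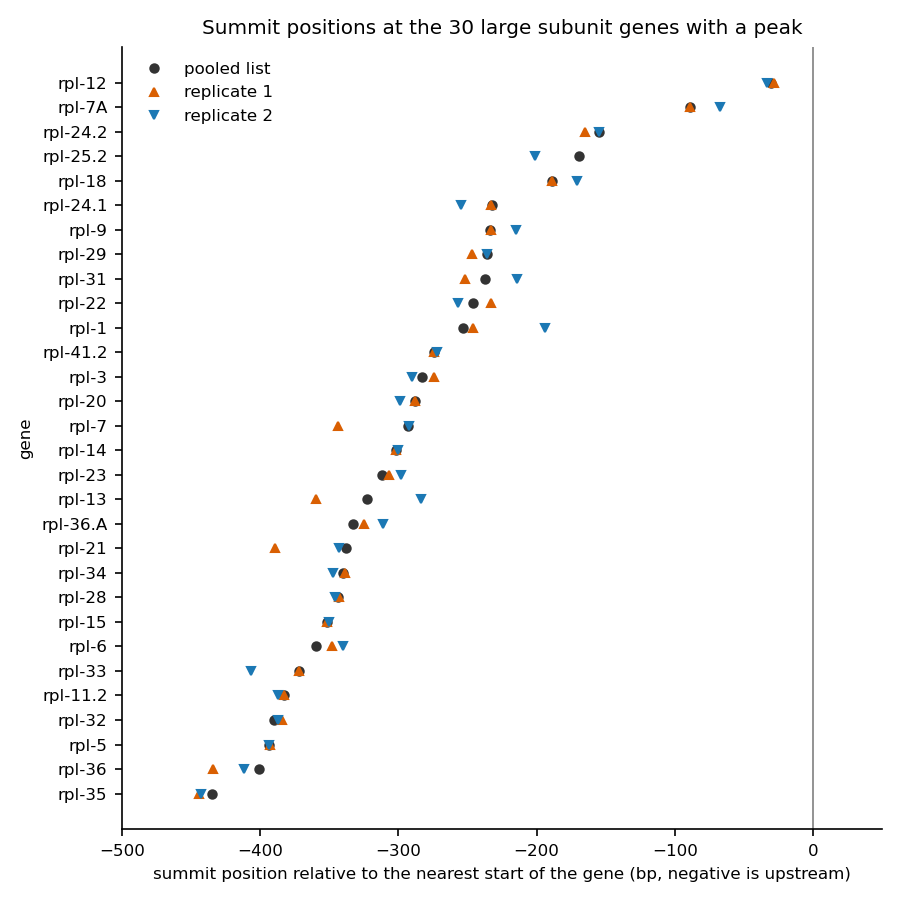
Position of the summit relative to the nearest start of the gene, in bp with negative values upstream, for the 30 large subunit genes with a peak, in the pooled list (circles) and in the overlapping regions of replicates 1 and 2 (triangles). All pooled summits lie between -435 and -30 bp, and the replicates differ by at most 76 bp.

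At 16 of the 30 genes (53.3%) the peak also lay within 500 bp of the start of another protein-coding gene, and in all 16 cases that gene pointed away from the ribosomal gene on the other strand. Of all 1034 protein-coding genes with a peak, 39.4% shared it with another such gene. In 9 of the 16 pairs the summit was nearer to the other gene. The peak of rpl-20 lay 288 bp from its start and 174 bp from that of Y17G9B.5, and the peak of rpl-15 lay 352 bp from its start and 462 bp from that of K11H12.8. The peak of rpl-12 lay 30 bp from its start and 363 bp from that of lin-54, a subunit of the DRM complex that acts on cell cycle genes.

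Several partners also serve the ribosome. The peak of rpl-36 lay between it (401 bp) and rps-14 (262 bp), and that of rpl-24.1 between it (232 bp) and rps-10 (378 bp), both genes of the small subunit. The peak of rpl-9 lay between it (234 bp) and lpd-7 (285 bp), whose human counterpart is the ribosome assembly factor pescadillo. That of rpl-28 lay between it (344 bp) and mrpl-49 (175 bp), a gene of the mitochondrial ribosome. The other partners were ify-1 (securin) at rpl-22, set-21 at rpl-7A, farl-11 at rpl-33, the collagen gene col-38 at rpl-5, C14B9.10 at rpl-21, nuo-1 of respiratory complex I at rpl-36.A, Y71F9AL.9 at rpl-1, ppm-1.H at rpl-34 and sac-2 at rpl-31. At the 14 genes that shared no peak with a coding gene, which include rpl-3 and rpl-35, the summit lay near the start of the ribosomal gene alone among coding genes.

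**Figure D3:**
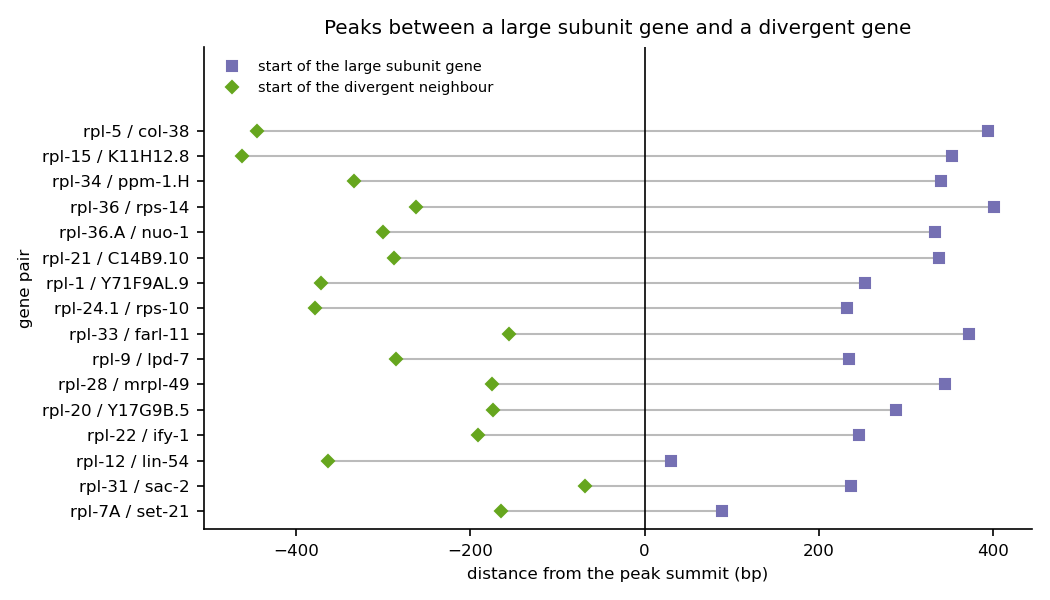
Distance in bp from the peak summit (line at 0) to the start of the large subunit gene (squares) and of the divergent protein-coding neighbour (diamonds), for the 16 pairs that share a peak, ordered by the distance between the starts. At rpl-20 the summit is 288 bp from the ribosomal gene and 174 bp from Y17G9B.5, and in each pair the summit lies between the starts.

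By chromosome, a peak lay near 9 of 17 large subunit genes on I, 5 of 9 on II, 7 of 9 on III, 7 of 8 on IV, 1 of 5 on V and 1 of 2 on X. On V the gene with a peak was rpl-28, while rpl-2, rpl-11.1, rpl-38 and rpl-39 had a region below the threshold. All chromosomes but X held at least 5 of these genes, and the counts are too low to read an order from them.

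Words that an earlier analysis of all peaks had singled out were not all frequent at these genes. They were searched on both strands within 50 bp of the summit. GAGAGA was found at 2 of the 30 summits (6.67%), rpl-11.2 and rpl-24.2, and at 24.07% of the 835 other peaks at protein-coding starts. The count moved with the flank, to 1 (3.33%, against 14.1%) at 25 bp and 6 (20%, against 36.9%) at 100 bp. ACGCAG was found at 6 summits (20%, against 17.1%), GACGCA at 7 (23.3%, against 18.3%), CGTCTC at 3 (10%, against 18.6%) and GAGCGC at 5 (16.7%, against 15.1%). ACGCAG and GACGCA overlap by 5 letters. At 17 of the 30 summits (56.7%) at least 1 of the 5 words was present, against 52.5%. The median share of G and C was 48.5% at these genes and 46.5% at the other peaks.

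Other words were frequent at these summits, as the capitals above show. ACCGTA lay at 13 of the 30 (43.3%), against 6.47% of the 835 other peaks at coding starts and 2.50% of 14862 background regions, the lowest of the pooled list. CACTCG lay at 12 (40%, against 6.59% and 1.49%) and GAGACC at 11 (36.7%, against 10.8% and 2.33%). The background regions were not matched to the peaks for base content. AAAAAT, for example, lay at 56.7% of them and at 28.5% of the 835 other peaks. ACACTC, which overlaps CACTCG, also lay at 13. These words were chosen for being frequent in these same sequences, so their counts here are a description only. Small subunit genes were not used in the choice, except where a peak is shared with a large subunit gene. ACCGTA lay at 7 of their 18 summits (38.9%), CACTCG at 3 (16.7%) and GAGACC at 3. These counts still include the shared summits. That of rps-10 and rpl-24.1 held ACCGTA and CACTCG, and that of rps-14 and rpl-36 held GAGACC. At 4 large subunit summits all 3 words were present, and at none of the 835.

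The pair printed above was rarer still. CGAGTG followed by ACCGTA with 2 bases between lay at 7 of the 30 summits (23.3%) and at 5 of the 835 others (0.599%). The 7 were rpl-11.2, rpl-22, rpl-29, rpl-6, rpl-21, rpl-24.1 and rpl-1. At small subunit genes it lay at 3 of 18 summits (16.7%), of which that of rps-10 is shared with rpl-24.1. The pair occurred at 33 places in the genome, 31 of them within 500 bp of a protein-coding start. Of the 33, 9 lay near a large subunit gene and another 4 near a small subunit gene without a large one. The 9 include rpl-34, where the pair lay inside the peak region but beyond 50 bp from the summit, and rpl-19, where the region was below the threshold. Of the 9 places, 8 were inside a peak, which the choice of the pair from these summits largely fixed. Of the 4 near a small subunit gene, 2 were inside a peak. Of the 18 places near other coding genes only, 4 were inside a peak. The same pair lay in the 500 bp upstream of 44 of 19973 nuclear protein-coding genes (0.220%). These included 8 of 50 large subunit genes (16%) and 5 of 31 small subunit genes (16.1%), so the shares of the 2 subunits were alike.

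Upstream sequence was also searched without regard to summits. In the 500 bp before the most upstream start, ACCGTA lay at 19 of the 30 genes with a peak, 6 of the 20 without and 13.9% of all protein-coding genes. CACTCG lay at 14 of the 30, at 1 of the 20, which was rla-2, and at 8.87% of all. GAGACC lay at 12 of the 30, 10 of the 20 and 12.9% of all. Among all protein-coding genes with a peak, the shares were 19.4% for ACCGTA, 14.2% for CACTCG and 20.7% for GAGACC. In the same order they were 35.5%, 25.8% and 45.2% for small subunit genes, and 50%, 30% and 44% for all 50 large subunit genes. A word is a match of letters and not a shown binding site, and the words came from the summits of the 30 genes with a peak.

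Other genes of protein synthesis were counted in the same way. A peak lay near 18 of 31 small subunit genes (58.1%), led by rps-1 (signal 378), rps-19 (289), rps-12 (277) and rps-20 (258). In replicate 1's own highest regions the share was 67.7% for the small and 52% for the large subunit, and in replicate 2's it was 51.6% and 60%. A pooled region lay near 93.5% and 82%. Their summits also lay well upstream, at a median of -287 bp. Genes of the mitochondrial ribosome had a peak at 7 of 70 (10%), with mrpl-28 (146) highest, and genes of translation factors at 9 of 39 (23.1%), with iff-2 (330) and eif-3.C (203) highest. Genes of ribosome assembly had one at 7 of 16 (43.75%). These included pro-1 (240), nol-58 (113) and fib-1 (105), the gene of the nucleolar methyltransferase fibrillarin. None of the 4 rpoa- genes of RNA polymerase I had one. The peaks of rps-14, rps-10, mrpl-49 and lpd-7, counted here, are those shared with large subunit genes. Median summit positions were -282 bp at the 7 genes of ribosome assembly, -175 bp at those of the mitochondrial ribosome and -154 bp at those of translation factors. Median pooled signals were 125.1 at small subunit genes with a peak and 163.3 at those of translation factors. They were 111.1 for the mitochondrial ribosome and 105.2 for ribosome assembly, against 112.5 for the large subunit. The differences between lists were not tested.

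**Figure D4:**
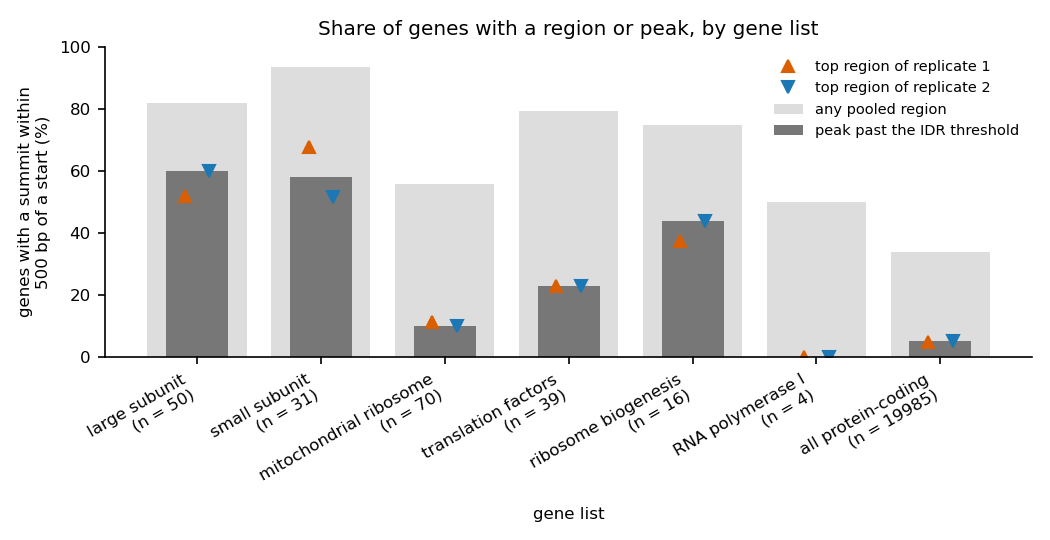
Percentage of genes with a summit within 500 bp of a start, for 6 gene lists and all protein-coding genes, as any pooled region (light bars), as a peak (dark bars) and as one of the 1794 highest regions of replicate 1 or 2 (triangles). The dark bars stand at 60% for the large subunit, 58.1% for the small subunit, 10% for the mitochondrial ribosome and 5.17% for all protein-coding genes.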

How the data were processed

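ChIP-seq of eGFP-tagged ZTF-4 was analysed from the deposited ce11 lists of 2 biological replicates. Per the deposited derivation listing, regions were called on each replicate's alignments, or on both pooled, with a control, and the IDR list was made from these. Not given in the sources used here: aligner, caller, versions and IDR cut-off. Each region's signal value (column 7) is the authors' own deposited signal, of unstated scale. Depth is unknown, since the lists hold no read counts, so no interval covers counting error. The region ends of the pooled list lay within the WBcel235 chromosomes. The ce10 lists were not used.

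Summits were column 2 plus column 10. A region counted for a gene with a start within 500 bp (Ensembl release 115), and a gene took its region of highest signal. Overlap meant 1 bp. Background regions were the 15000 of lowest signal less those overlapping a peak. Six-letter words were scored within 50 bp of summits. The assignment was tested on planted summits. Python 3.11.15, pandas 2.3.3 and numpy 2.4.6 were used. No p-value is given, since 1 group allows no contrast between conditions and differences between gene lists were not tested. Named genes were all members in full or by range, partners that share a peak, and the leading genes of the other lists. Members, lists and the first 5 words were chosen with earlier results of these data known, and the 3 capitalised words and their pair after the sequences were seen. Alternatives were windows of 250 and 1000 bp, the most upstream start, each replicate alone, peaks in the top of both, the 897 highest peaks, 1 gene per peak and flanks of 25 and 100 bp.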

Additional observations from a re-analysis of the deposited data

How the results depend on the processing

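Of 40 alternatives to 7 results, 29 left counts within 1.5 times, positions within 6.72 bp or the signal equal. The 6.72 bp are the SD of the medians from each replicate's own highest regions, which are 2 of the alternatives. The window mattered most. At 250 bp, 10 genes had a peak, 17 a pooled region and 3 a shared peak, the median signal was 109 and the median position -210.5 bp, since the median summit lay beyond that window. At 1000 bp, 33 genes had a peak, 24 a shared one, and the median signal was 116. The count of genes with a peak was 30 with the most upstream start or any base of the peak, 25 with the 897 highest peaks, 26 when the top of each replicate had to hold the peak and 21 when each peak counted for the nearest coding start only. The median position was -307 bp for those 26 genes and ran from -304.5 to -295 bp with either replicate's own highest regions. A share of all protein-coding genes was computed for the top of both replicates (3.45%). It was also computed for each replicate alone, and at no other alternative. The other counts of genes, such as 10 at 250 bp, therefore have no background to be set against. GAGAGA lay at 6 summits with a flank of 100 bp and at 1 with 25 bp. ACCGTA lay at 8 with 25 bp (26.7%, against 2.99% of the 835 other peaks) and 16 with 100 bp (53.3%, against 9.10%). These alternatives, and the flanks at other peaks, were chosen after seeing the data. With unknown depth, absence from a list does not give a level.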
